A study of Mus musculus with 7 samples.

Results

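The 4T1 library was prepared from 1 mammary tumor that grew from transplanted 4T1 cells, and it held 1751 of the 12168 cells kept over all 7 libraries. Cells were kept with at least 1000 unique molecular identifiers (UMIs, each counting 1 captured transcript once), at least 500 genes and under 20% of UMIs from mitochondrial genes, and levels are given as CPM, a gene's UMIs from all cells of a library per 1000000 UMIs of that library. The library was set against the range of the 6 other libraries of the study, namely 2 BRCA1-null, 2 PyMT and 2 Neu tumors, each a separate tumor and labelled replicate A or B. With 1 tumor there is no replicate of 4T1, so no test was run and no p-value is given. Exact intervals and ratios with intervals cover counting error only.

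The 4T1 line is a cultured mammary carcinoma line of BALB/C origin, obtained from ATCC, that carried a lentiviral GFP construct and was injected into the mammary fat pad of BALB/C females. All other tumors were on the FVB/NJ strain. The BRCA1-null tumors arose in mice with floxed Brca1 and Trp53 (F/F for both) and K14-Cre, in which the keratin 14 promoter drives Cre. The PyMT tumors grew after transplantation of FF99WT cells, a single line from an MMTV-PyMT tumor with floxed FIP200 alleles and no Cre. The Neu tumors arose in MMTV-Neu mice, a strain that the paper describes as crossed with mice with floxed FIP200. Protocol text shared by the replicate B libraries describes a Neu tumor with floxed FIP200 alleles and no Cre, from which N148 cells were derived. The paper names this tumor as Neu A. Both MMTV transgenes use the promoter of the mouse mammary tumor virus. All tumors were untreated adult tumors of about 1000 cubic millimetres, and CD24+ cells negative for CD31, CD45 and Ter119 were sorted from each of them. Strain, cell line and model cannot be told apart in any difference between 4T1 and the other libraries, and replicates of a model carry the same strain.

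4T1 cells are widely used as a transplantable model of metastatic breast cancer in immunocompetent mice. Several gene groups described here belong to antigen presentation. MHC class I molecules show peptides from inside a cell to CD8 T cells and are made by nearly all cells. MHC class II molecules are heterodimers that show peptides to CD4 T cells, are assembled with the invariant chain Cd74 and are mostly made by professional antigen-presenting cells, and interferon gamma can induce them in many other cells through the coactivator Ciita. Interferon gamma also induces guanylate-binding proteins, the chemokines Cxcl9 and Cxcl10 and the subunits of the immunoproteasome.

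The 4T1 library held 20205082 UMIs in the cells kept, with a median of 11067 UMIs and 2911 genes per cell, and the other libraries held from 5578911 to 37693300 UMIs. BRCA1-null replicate A stood apart with 245 cells, of which 13.5% had UMIs of at least 2 immune markers, against 2.34% (41 cells) in 4T1 and 0% to 2.74% in the other libraries. A UMI of Epcam, Krt8 or Krt18 was found in 99.9% of 4T1 cells and in 95.5% to 100% of the cells of each other library, so this measure was near its maximum throughout. The 7 mammary luminal markers summed to 5852 CPM in 4T1, inside the range of 1475 to 18453 CPM. Markers of other cell types were scarce. The 9 immune markers summed to 29.5 CPM, inside the range of 3.09 to 88.0 CPM in the other libraries, and Ptprc, which encodes CD45, was at 0.0990 CPM (2 UMIs). The 7 endothelial markers summed to 1.19 CPM, all of it from Pecam1, which encodes CD31, with the other 6 at 0. The 8 fibroblast markers summed to 34.5 CPM against 4.97 to 2162 CPM, and the 10 macrophage markers to 28.7 CPM against 13.4 to 1630 CPM. Cd24a, the sort marker, was at 265 CPM and lower than all 6 libraries, which lay between 395 and 613 CPM. It was 1.49-fold under the lowest, short of the 2-fold limit for calls. Of 118 barcode sequences found in more than 1 library, 30 occurred in 4T1.

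Genes were counted over the 9499 that reached 10 CPM in at least 1 library. A gene was called above when 4T1 was at 10 CPM or more and at least 2-fold over the highest of the 6 libraries, and below when the lowest of the 6 was at 10 CPM or more and 4T1 was at most 1/2 of it, with counts under 3 set to 3. The 4T1 library was above all 6 for 514 genes (5.41% of those counted) and below all 6 for 167 genes (1.76%). Without BRCA1-null A, the library that stood apart, the counts were 698 above and 243 below the other 5, a range over fewer libraries. By any amount it was higher than all 6 for 2435 genes (25.6%), lower for 1600 (16.8%) and inside their range for 5464 (57.5%). A 2-fold difference was also common between replicates of 1 model, at 28.7% of genes between the BRCA1-null tumors, 11% between the PyMT and 10.3% between the Neu tumors. The median fold was 2.88 among the genes above and 3.38 among the genes below, and 64 and 41 genes respectively passed 10-fold. Sult2b1 lay just inside the limit for genes above (2.002-fold) and Gorab just outside (1.997-fold), while Slc6a8 (2.003-fold) and Borcs6 (1.996-fold) lay on either side of the limit for genes below.

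Most calls were of protein-coding genes, 499 of those above and 164 of those below. The highest of the 6 libraries was a BRCA1-null library for 335 of the genes above, a PyMT library for 114 and a Neu library for 65. The shares of protein-coding genes and of each model as the highest were not computed over all genes. These counts therefore only describe the calls. For 210 of the genes above, all 6 other libraries were under 10 CPM, so these were counted only because 4T1 was high. The shares above of the gene lists given later rest partly on this rule. Examples are Gbp4, Cxcl9, Nlrc5, H2-M3, Il1a and Mmp9. For 111 of the genes below, 4T1 was itself under 10 CPM. The median gene was 0.24 higher (log2) in 4T1 than the median of the 6 libraries on the CPM scale, and this shift was 0.01 after scaling by TMM and 0.02 by the median of ratios. Differences are therefore to be read relative to that shift.

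MHC class II had the largest share of members above all 6 libraries among the 31 gene lists. Each of the 7 members that could be counted was above all 6 libraries, and their median log2 difference to the median of the 6 was 5.01, against 0.24 over all genes. H2-Eb1 and H2-DMb2 reached 10 CPM only in 4T1, so they were counted because 4T1 was high. The share of 100% above rests partly on this rule. H2-Eb1 encodes the beta chain of the I-E molecule and is located at chr17:34305867-34316674 (GRCm38). H2-Eb1 was at 1148 CPM in 4T1, with 3.05 (A) and 1.15 (B) CPM in the BRCA1-null tumors, 3.92 and 2.07 CPM for PyMT and 2.44 and 0.594 CPM for Neu. No other library came near 4T1, and the ratio to the highest of them was 293 (95% interval 232 to 375). H2-Aa, the alpha chain of I-A, was at 1145 CPM in 4T1 against 35.8, 17.1, 37.4, 44.3, 1.99 and 0.535 CPM in the order just given, a ratio of 25.9 to the highest. H2-Ab1, its beta chain, was at 855 CPM against 32.8, 20.3, 138, 139, 2.89 and 2.08 in the same order. For both genes the Neu tumors were lowest, and for H2-Ab1 the PyMT tumors came next to 4T1. The invariant chain Cd74 was at 3517 CPM, 7.65-fold over PyMT B at 460 CPM and PyMT A at 408 CPM, with 64.2 and 60.8 CPM in BRCA1-null and 7.14 and 2.44 CPM in Neu.

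The genes of the peptide-loading DM molecule were above as well, with PyMT next for H2-DMa and Neu next for H2-DMb1 and H2-DMb2. H2-DMa was at 208 CPM against 4.22 to 27.7, H2-DMb1 at 223 against 11.5 to 62.4 and H2-DMb2 at 43.5 against 0.538 to 3.21. The coactivator Ciita did not reach 10 CPM in any library and was at 8.51 CPM in 4T1 against 0.110 to 1.25. H2-Oa, H2-Ob and Ctss were also too low to be counted. Immune markers summed to 29.5 CPM over the whole library, as given above. The log2 ratio of H2-Eb1 to the highest library was 8.20 with all cells and 8.20 without cells bearing 2 or more immune or endothelial markers. The part of other cell types in the class II levels was not tested otherwise. H2 genes differ between mouse strains and have close relatives, and the reads were counted on the genome of another strain, so the levels of single H2 genes are uncertain between BALB/C and FVB/NJ.

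Class II UMIs were spread over nearly all cells of the 4T1 tumor. Each cell was thinned to 3000 UMIs to compare shares, which left 1685 4T1 cells and left out 66. H2-Eb1 had a UMI in 87.5% of these cells (exact 95% interval 85.9 to 89.1), against 0% to 1.19% in the other libraries, and in 95.9% of 4T1 cells before thinning. Cd74 had a UMI in 98.6% of 4T1 cells, in 29.2% and 37.7% of PyMT cells, in 9.46% and 3.63% of BRCA1-null cells and in 2.46% and 0.667% of Neu cells. Of H2-Aa, H2-Ab1, H2-Eb1 and Cd74, 69.9% of 4T1 cells showed all 4 and 0.653% (11 cells) showed none, whereas no more than 0.210% of the cells of any other library showed all 4. Showing all 4 required H2-Eb1, which had a UMI in at most 1.19% of the cells of any other library. In PyMT A and B 4.22% and 6.19% of cells showed 3 of the 4, and 59.0% and 50.1% showed none. No cell type that should lack these genes was set apart in the 4T1 library, so the part of free RNA in its shares was not tested.

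**Figure D1:**
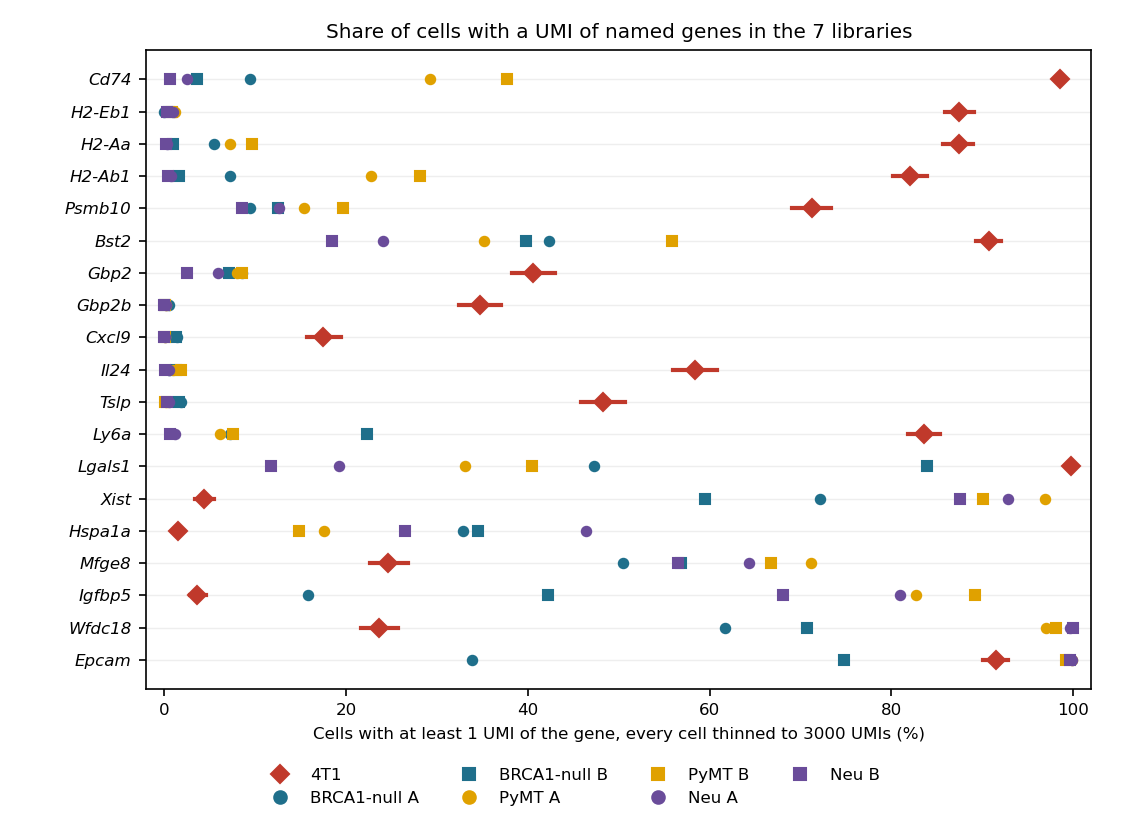
Share of cells with at least 1 UMI of named genes (horizontal axis, percent, cells thinned to 3000 UMIs) in each of the 7 libraries, with color for the tumor model and shape for the replicate. Diamonds with horizontal lines are the 4T1 share and its exact 95% interval, and the 4T1 share of Cd74 (98.6%) and H2-Eb1 (87.5%) lay far to the right of the other libraries, while Xist (4.33%) lay to the left.

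The promoters of 3 of these genes are shown because class II genes share regulatory boxes there, bound by factors that recruit Ciita. Sequences are from RefSeq on GRCm38.p6 and run from 250 bases before to 50 bases after the start site on the strand of the gene. H2-Eb1 lies at chr17:34305617-34305916 (plus strand), H2-Aa at chr17:34287774-34288073 (minus strand) and H2-DMb2 at chr17:34144999-34145298 (plus strand). Capitals mark matches to TGATTGG, the core of the Y box, and to a form of the X box (GCAAC, any base and then GATG), searched on both strands.
H2-Eb1: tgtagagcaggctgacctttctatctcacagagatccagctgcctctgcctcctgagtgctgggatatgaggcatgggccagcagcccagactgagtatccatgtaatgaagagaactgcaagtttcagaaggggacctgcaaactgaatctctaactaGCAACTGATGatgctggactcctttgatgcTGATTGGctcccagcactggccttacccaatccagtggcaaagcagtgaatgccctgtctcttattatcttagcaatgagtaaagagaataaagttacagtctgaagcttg
H2-Aa: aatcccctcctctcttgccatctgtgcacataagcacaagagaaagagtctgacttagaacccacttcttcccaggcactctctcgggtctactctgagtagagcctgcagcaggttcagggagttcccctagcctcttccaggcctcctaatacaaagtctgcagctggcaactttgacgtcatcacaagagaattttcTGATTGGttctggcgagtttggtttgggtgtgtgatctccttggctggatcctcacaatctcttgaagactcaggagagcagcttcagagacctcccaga
H2-DMb2: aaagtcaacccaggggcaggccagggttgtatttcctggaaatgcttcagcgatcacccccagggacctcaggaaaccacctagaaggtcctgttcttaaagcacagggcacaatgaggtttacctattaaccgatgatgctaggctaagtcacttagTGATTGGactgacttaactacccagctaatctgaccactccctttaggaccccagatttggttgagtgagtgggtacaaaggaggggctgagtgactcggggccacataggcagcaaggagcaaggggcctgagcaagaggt
The Y box core began 61 bases before the start in H2-Eb1, 50 in H2-Aa and 92 in H2-DMb2, and the X box form matched in H2-Eb1, 91 bases before the start. Of the 7 class II genes above all 6 libraries, 5 had promoter entries, and 4 of these 5 held TGATTGG. Counted by promoter, it occurred in 66.7% of their 6 promoters and in 7.82% of all 32851 promoters. The X box form occurred in 0.192% of all promoters. A match describes letters in this window and is not evidence of binding. No promoter entry was used for H2-Ab1 and Cd74.

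MHC class I presentation was also higher in 4T1, with 10 of 23 members above all 6 libraries, none below and 19 higher by any amount (median log2 difference 1.57). The share above was 43.5%, against 5.41% over all genes, of which 25.6% were higher by any amount. The classical heavy chains H2-K1 and H2-D1 were not among those called. Nlrc5, the coactivator of class I genes, was at 19.4 CPM against 0.832 to 2.63 CPM. Psmb10, an immunoproteasome subunit, was at 524 CPM in 4T1 and at 36.6, 49.5, 57.6, 87.6, 49.8 and 32.4 CPM in BRCA1-null A and B, PyMT A and B and Neu A and B, a ratio of 5.98 to PyMT B. Psmb9, another subunit, was at 398 CPM against 32.2 to 90.2, and the nonclassical H2-M3 at 37.5 against 3.81 to 8.42. Classical heavy chains and the light chain B2m lay closer to the other tumors. H2-K1 was at 2150 CPM, inside the range of 645 to 2415, H2-D1 was 1.74-fold and B2m 1.55-fold over the highest library. With TMM scaling 6 members and with the median of ratios 7 members were called above.

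Of 43 interferon response genes, 22 were above all 6 libraries, none was below and 29 were higher by any amount, with a median log2 difference of 2.04. The share above was 51.2%, against 5.41% over all genes, of which 25.6% were higher by any amount. With TMM scaling and with the median of ratios 16 were above. Gbp2b, a guanylate-binding protein at chr3:142594847-142619179 that was not on the list, was at 181 CPM in 4T1 and between 0.0594 and 0.883 CPM elsewhere, a ratio of 205 (95% interval 126 to 358). The guanylate-binding proteins are close relatives, so reads could be divided between them. Gbp4 was at 125 CPM against 6.27, 0.542, 0.497, 1.33, 0.316 and 0.149 CPM in BRCA1-null A and B, PyMT A and B and Neu A and B. Gbp2 was at 203 CPM, 4.95-fold over PyMT B. Cxcl9, a ligand of Cxcr3, was at 153 CPM in 4T1, at 5.74 and 9.42 CPM in BRCA1-null and at or under 0.497 CPM in PyMT and Neu. Cxcl10, another Cxcr3 ligand, was at 232 CPM in 4T1, with BRCA1-null A and B at 101 and 94.1 CPM, PyMT at 1.60 and 0.292 CPM and Neu at 1.18 and 0.416 CPM. For both chemokines BRCA1-null came next to 4T1, and for Cxcl10 the gap to it was 2.28-fold. Irf8 was 5.25-fold above the highest library and Irf1, also an interferon regulatory factor, was 1.60-fold above it (52.5 against 32.9 CPM) and not called.

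The list was not uniform. The interferon-induced genes Isg15 (319 CPM against 19 to 383), Ifit1 (30.0 against 5.29 to 42.7) and Rsad2 (15.3 against 3.07 to 105) were inside the range, with PyMT B highest for each. Socs1 (57.5 CPM against 0.683 to 18.6) and Zbp1 (173 against 17.2 to 80.5) were above. Ly6e was lower than all 6 libraries, at 377 CPM against 487 to 2766. These members were chosen for mention after their values were seen. Fewer 4T1 cells had UMIs of the chemokines than of the guanylate-binding proteins at 3000 UMIs per cell, with 17.5% for Cxcl9 and 17.9% for Cxcl10, against 40.6% for Gbp2 and 34.7% for Gbp2b.

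The promoters of Gbp2b and Cxcl10 are shown as examples of genes that were high in 4T1 alone and in 4T1 together with BRCA1-null. Gbp2b lies at chr3:142594597-142594896 (plus strand) and Cxcl10 at chr5:92348840-92349139 (minus strand) on GRCm38.p6, and capitals mark matches on either strand to GAAA, 2 bases of any kind and GAAA, the form of interferon-stimulated response elements.
Gbp2b: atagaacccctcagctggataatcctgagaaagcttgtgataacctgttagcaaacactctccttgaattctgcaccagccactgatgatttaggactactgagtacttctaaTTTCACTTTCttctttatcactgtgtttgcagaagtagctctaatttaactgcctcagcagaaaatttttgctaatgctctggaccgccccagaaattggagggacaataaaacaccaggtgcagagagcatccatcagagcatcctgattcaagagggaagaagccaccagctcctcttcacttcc
Cxcl10: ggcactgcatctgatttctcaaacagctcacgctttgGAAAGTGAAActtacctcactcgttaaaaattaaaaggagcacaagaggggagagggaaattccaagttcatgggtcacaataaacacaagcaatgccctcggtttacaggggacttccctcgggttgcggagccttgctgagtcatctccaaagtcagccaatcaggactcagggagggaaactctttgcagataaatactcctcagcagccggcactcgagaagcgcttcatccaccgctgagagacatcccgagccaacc
The match began 137 bases before the start in Gbp2b and 213 in Cxcl10. It occurred in 3.44% of all promoters and in 50.0% of the 40 promoters of counted interferon list genes. For list genes above all 6 libraries the share was 52.2% of 23 promoters. By gene, it occurred in 19 of the 33 counted list genes with a promoter entry and in 11 of the 18 above. No promoter entry was used for Gbp4.

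Of 30 chemokine and cytokine genes 9 were above all 6 libraries (30.0%, against 5.41% over all genes) and none was below, with a median log2 difference of 2.54. Il24, a cytokine of the interleukin-10 family, was at 621 CPM in 4T1 against 3.05, 11.2 (BRCA1-null), 5.96, 8.60 (PyMT), 1.54 and 0.238 CPM (Neu), a ratio of 55.4 (95% interval 49.7 to 62.0). Tslp, an epithelial cytokine of type 2 immunity, was at 541 CPM against 12, 16.1, 1.21, 0.424, 1.58 and 0.802 CPM in the same order. Il1a, an alarmin, was at 91.2 CPM against 0.0297 to 0.610 CPM. UMIs of Il24 were found in 58.4% and of Tslp in 48.3% of 4T1 cells at 3000 UMIs, against at most 1.84% and 1.80% in any other library. The neutrophil attractants Cxcl5 (113 CPM against at most 24.6) and Cxcl1 (2633 against at most 618, chosen after its value was seen) and the chemokine Cxcl16 (347 against at most 80.0) were also above. Csf3, the granulocyte growth factor, was at 1146 CPM but inside the range, since PyMT A was at 2129 CPM. PyMT B was at 384 CPM, and the BRCA1-null and Neu libraries lay between 7.40 and 36.5 CPM. Inhba, a subunit of activin A, was at 285 CPM against 0.356 to 53.4 CPM. Nos2, the inducible nitric oxide synthase, was at 72.2 CPM against at most 0.896 CPM.

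Among proteases and invasion genes 5 of 28 were above and 1, the cathepsin inhibitor Cst6, was below (17.9% and 3.57%, against 5.41% and 1.76% over all genes). Mmp9, a gelatinase, was at 197 CPM in 4T1, with BRCA1-null at 5.74 and 1.46 CPM, PyMT at 0.442 and 0 CPM and Neu at 0.316 and 0.0594 CPM. Mmp10, a stromelysin, was at 107 CPM against at most 1.88 CPM, and the urokinase Plau was at 68.2 CPM against at most 3.41 CPM. Each of these 3 genes was highest in 4T1 by more than 10-fold. None of them reached 10 CPM in another library, so they were counted because 4T1 was high. Of the surface markers, Ly6a (Sca-1) was at 1214 CPM against 63.5, 222, 37.7, 44.0, 4.61 and 1.78 CPM and Cd47 at 291 CPM against at most 91. Ly6a was 5.46-fold above BRCA1-null B, the next library. NF-kB genes were above for 4 of 18 members (22.2%), among them the adhesion molecule Vcam1 (111 CPM against at most 20.8) and Traf1 (92.3 against at most 19.7). Wnt genes were above for 3 of 19 (15.8%), namely Notum (24.2 against at most 3.58), Procr (53.8 against at most 9.68) and Wnt7a (12.6 against at most 0.179). All 3 reached 10 CPM only in 4T1, so this share rests on genes counted because 4T1 was high. The cell cycle inhibitor Cdkn2c (62.8 CPM against at most 23.8) and cyclin D1, encoded by Ccnd1 (488 against at most 217), were above as well.

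The largest folds above included genes without a list. Padi4, a peptidylarginine deiminase, was at 93.0 CPM against at most 1.29 CPM, Gpa33, an intestinal surface antigen, at 91.7 against at most 0.849 CPM and Uox, urate oxidase, at 68.3 against at most 0.915 CPM. Prl2c3 was at 66.9 CPM and Tmprss11e at 62.2 CPM, while the other libraries held at most 3 UMIs of Prl2c3 and at most 2 of Tmprss11e each. Prl2c3 belongs to a family of near-identical copies, so its level is uncertain.

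**Figure D2:**
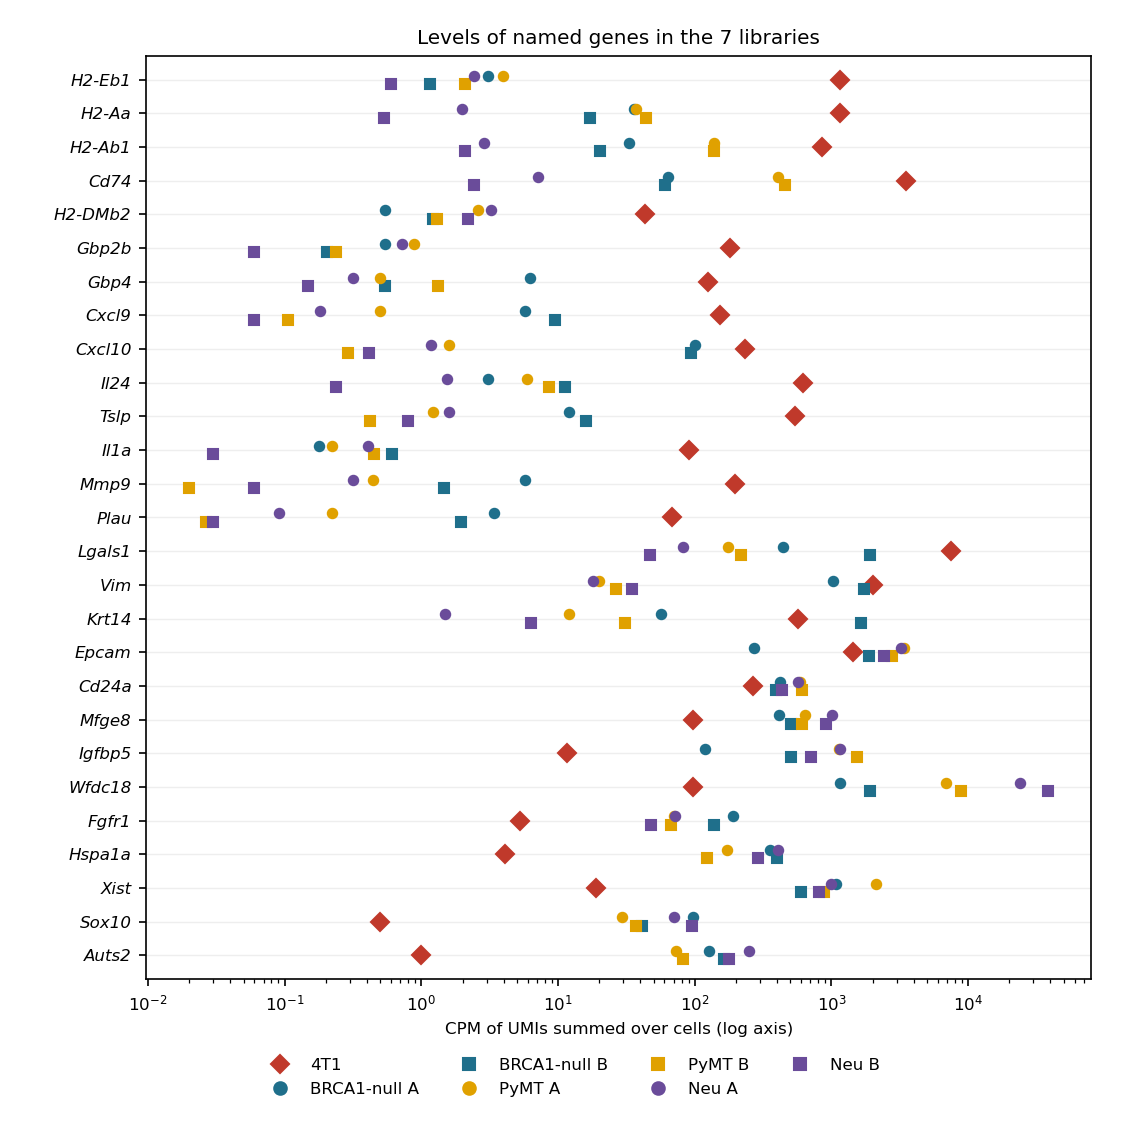
CPM (horizontal log axis) of named genes in the 7 libraries, with color for the tumor model and shape for the replicate, and a value of 0 drawn at 0.02 CPM. The diamonds of 4T1 lay to the right of all other points for the genes from H2-Eb1 to Vim and to the left for those from Cd24a to Auts2, with Krt14 and Epcam inside the range.

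The genes furthest below all 6 libraries were of mixed function. Auts2, a chromatin-associated regulator, was at 0.990 CPM in 4T1, with BRCA1-null A and B at 128 and 163 CPM, PyMT at 72.4 and 81.4 CPM and Neu at 250 and 178 CPM. Xist, the RNA that coats the inactive X chromosome, was at 19 CPM against 1073, 601, 2104, 881, 995 and 808 CPM in the same order. Xist had a UMI in 4.33% of 4T1 cells at 3000 UMIs, against 59.5% to 96.9% in the other libraries. Sox10, a transcription factor of neural crest and mammary progenitor cells, was at 0.495 CPM (10 UMIs) against 29.4 to 97.2 CPM. Fgfr1, a fibroblast growth factor receptor, was at 5.25 CPM against 48.2 to 191 CPM. The receptors Erbb3 (3.27 CPM against 11.7 to 49.7) and Prlr, the prolactin receptor (1.19 against 15.2 to 57.0), were below, as was Tgfb2 (3.51 against 26.6 to 74.9), but Erbb3 was no longer called after scaling by TMM or the median of ratios. Hspa1a, an inducible heat shock protein, was at 4.06 CPM against 122 to 406 CPM, whereas Hspa1b, its near-identical copy, was at 43.5 CPM against 15.9 to 40.5, so the division of reads between both is uncertain. Selenop, a selenium carrier, Lbp, the lipopolysaccharide-binding protein, Mia and Pdlim1 were between 2.28 and 3.66 CPM in 4T1 and at 59.2 CPM or more in each other library. Ldhb, the B subunit of lactate dehydrogenase, was at 9.65 CPM against 93.4 to 232, while Ldha, its A subunit, was inside the range at 727 CPM.

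Genes of the secretory mammary lineage were low in 4T1, on a list where the other models differ widely. Of 20 milk and alveolar genes 2 were below, 10 were lower by any amount and none was higher, with a median log2 difference of -3.33. Over all genes 1.76% were below and 16.8% lower by any amount. Lalba, the lactose synthase subunit alpha-lactalbumin, was at 13.7 CPM against 40.9, 134, 256, 1396, 6294 and 4883 CPM in BRCA1-null A and B, PyMT A and B and Neu A and B. The water channel Aqp5 was at 22.3 CPM against 151 to 7873 CPM. The casein Csn1s1 was at 45.5 CPM, 1.5-fold under BRCA1-null A and far under Neu A at 10628 CPM. For all 3 genes a BRCA1-null library came next to 4T1 and the Neu libraries lay furthest away. Of 18 luminal progenitor and involution genes, Wfdc18 (97.5 CPM against 1161 to 38573), Mfge8 (96.7 against 416 to 1001) and Cd14 (16.3 against 81.0 to 385) were below and Igfbp4 was above (402 CPM against 123, 179, 1.05, 1.30, 2.12 and 0.713). Igfbp5, a binding protein of insulin-like growth factors that marks involution, was counted on the basal and myoepithelial list instead. It was at 11.7 CPM against 118 to 1541 CPM and was the 1 member of that list below. Lactoferrin, encoded by Ltf, was at 52.2 CPM and inside the range, near BRCA1-null A at 52.7 CPM and far under PyMT A at 5587 CPM.

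Epithelial and mesenchymal genes were mostly inside the range, as were 57.5% of all genes counted. Of 27 keratin and junction genes 24 were inside, with 1, the desmosomal Dsp, above and none below, and Dsp was no longer called after scaling by TMM or the median of ratios. Epcam was at 1449 CPM, over BRCA1-null A at 269 CPM and under the other 5 libraries. Cldn3 (164 CPM against 134 to 1103) and Cldn4 (170 against 72.6 to 966) lay near the low end. Krt14, a basal keratin, was at 570 CPM, between BRCA1-null B at 1634 CPM and the next library at 56.5 CPM, while Krt5 was at 0.544 CPM (BRCA1-null A and B at 26.5 and 101 CPM) and Acta2 at 1.14 CPM (BRCA1-null at 228 and 183 CPM). Krt5 and Acta2 were chosen after their values were seen. Of 24 mesenchymal and matrix genes 20 were inside the range, which was wide, and their median log2 difference was 2.14. They summed to 10420 CPM in 4T1, against 4262 and 21682 CPM in BRCA1-null A and B and 152 to 388 CPM in PyMT and Neu. Vim was at 2028 CPM, 1.18-fold over BRCA1-null B, at 1022 CPM in BRCA1-null A and at 18 to 34.7 CPM in PyMT and Neu. Sparc was at 122 CPM against 622 and 1537 CPM in BRCA1-null and 3.53 to 16.7 CPM in PyMT and Neu. Lgals1, galectin-1, was the 1 member above, at 7509 CPM against 1928 CPM in BRCA1-null B and 444 CPM or less elsewhere. Over the whole list the mean absolute log2 difference of 4T1 was 2.464 from Neu, 2.569 from PyMT and 3.333 from BRCA1-null. None of 9 EMT transcription factors was called in either direction.

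No counted member of the cell cycle list was called in either direction, and 27 of 31 were inside the range. Cdkn2c and Ccnd1, given above, belong to another list, that of G1 cyclins and inhibitors. Over all genes 5.41% were above, 1.76% below and 57.5% inside. The median log2 difference of the list was 1.33. Its genes summed to 1451 CPM in 4T1, against 2670 and 1139 CPM in BRCA1-null A and B and 217 to 503 CPM in PyMT and Neu. Mki67, a proliferation marker, was at 47.2 CPM in 4T1, with BRCA1-null at 37.1 and 20.4 CPM, PyMT at 3.26 and 16.1 CPM and Neu at 8.68 and 19.7 CPM, and was 1.27-fold over the highest. The mean absolute log2 difference of 4T1 over this list was 0.527 from BRCA1-null, 1.45 from Neu and 2.11 from PyMT. Of the genes altered in the models, Trp53 was at 40.6 CPM and inside the range, between BRCA1-null at 39.1 and 25.1 CPM and Neu at 48.5 and 44.6 CPM. Erbb2, Rb1cc1 (which encodes FIP200) and Brca1 were inside the range too, at 10.1, 54.6 and 5.49 CPM in 4T1. Respiratory chain genes were lower by any amount for 13 of 28 members, with 1 below (Ndufa1, 50.6 CPM against 107 to 247) and a median log2 difference of -0.47. Over all genes 16.8% were lower by any amount and 1.76% were below. The glycolysis and hypoxia list (0 above and 2 below of 31) and the lists for glutathione and NRF2, unfolded protein and lipid synthesis (0 above and 1 below each, of 27, 26 and 22) had 3.70% to 6.45% of members below, against 1.76% over all genes. The unfolded protein call was lost after scaling by TMM or the median of ratios.

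**Figure D3:**
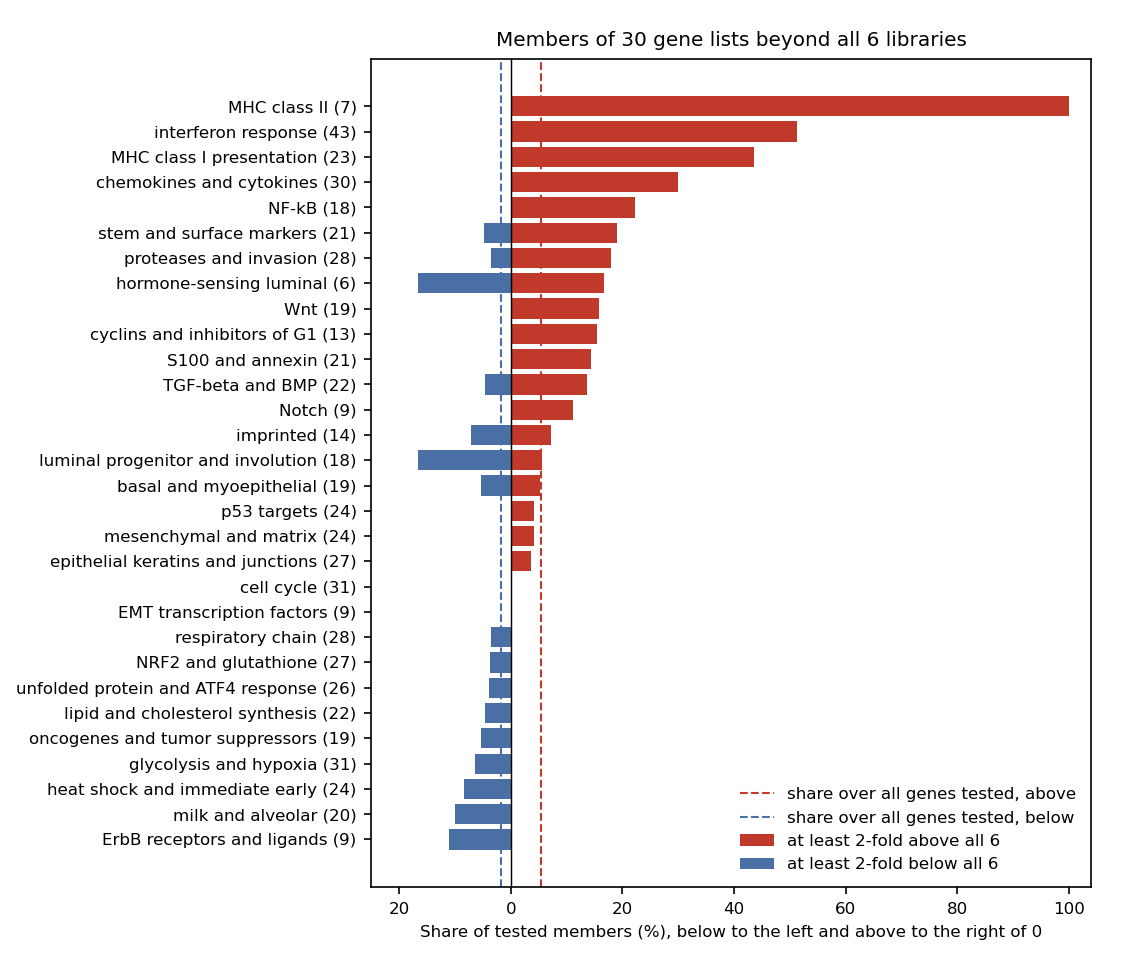
Share of the counted members of 30 gene lists with 6 or more counted members (number in brackets) that were at least 2-fold above all 6 libraries (bars to the right, percent) or at least 2-fold below them (bars to the left, percent) in 4T1. Dashed lines give the shares over all 9499 genes, 5.41% above and 1.76% below, and MHC class II (100%), interferon response (51.2%) and MHC class I presentation (43.5%) had the longest bars. The class II genes H2-Eb1 and H2-DMb2 were counted through 4T1 alone, as were all 3 Wnt genes above and some called members of other lists.

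Which model 4T1 was closest to depended on the measure. By Pearson's r of log2(CPM + 1) across genes, 4T1 was closest to PyMT, with 0.7832 and 0.7822 for replicates A and B, then to BRCA1-null with 0.7367 and 0.7574 and then to Neu with 0.6362 and 0.6366. The margin of the model means, 0.7827 for PyMT over 0.7470 for BRCA1-null, was 0.0356, and it differed between replicate letters with an SD of 0.0154. Replicates of PyMT reached 0.9747 with each other, those of Neu 0.9704 and those of BRCA1-null 0.855. Genes are not replicates, and libraries share the most abundant genes. By the mean absolute log2 difference from the mean of a model, a measure added after seeing the data, BRCA1-null was closest at 0.951, followed by PyMT at 1.017 and Neu at 1.318. Here the replicates of a model were averaged first, whereas r was averaged over libraries, so the margins are not like for like. Each averaged value lay under those of both replicates, by most for BRCA1-null. Taken by library, BRCA1-null B was closest at 0.979, while BRCA1-null A at 1.059 was further from 4T1 than PyMT A at 1.041 and PyMT B at 1.025, so this order rested on BRCA1-null B. By root mean square log2 difference, BRCA1-null A (1.5436) was again further than PyMT A (1.5027) and B (1.4942), and BRCA1-null B (1.4743) nearer. Genes at least 2-fold apart from 4T1 were fewer for both BRCA1-null libraries (39.4% and 34.6%) than for both PyMT libraries (40.9% and 40.5%). Gene by gene, the nearest model mean was BRCA1-null for 46.6% of genes, PyMT for 33.5% and Neu for 19.9%. By the mean absolute log2 difference, 20 of the 31 gene lists were nearest to BRCA1-null, 9 to PyMT and 2 to Neu. Both the gene and the list counts used the averaged replicates. Some were near ties, such as S100 and annexin genes at 1.47 from BRCA1-null and 1.496 from PyMT. The lists nearest to PyMT included MHC class I, MHC class II and basal genes, and cell cycle, interferon and milk genes were among those nearest to BRCA1-null.

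Between single cells, the 4T1 cells resembled BRCA1-null cells most often and formed a group of their own. In 5 draws of 222 cells per library, each cell thinned to 3000 UMIs and placed in 50 principal components of 2000 variable genes, 99.1% to 100% of the 20 nearest cells of a 4T1 cell were 4T1 cells. With the 4T1 cells left out of the neighbors, 64.6% to 80.3% were BRCA1-null cells, 19.7% to 35.3% PyMT cells and at most 0.0901% Neu cells. Most of the BRCA1-null neighbors came from replicate B (54.0% to 64.4% of all neighbors), and replicate A gave 10.7% to 17%, within the range of the PyMT libraries (5.16% to 14.6% and 9.17% to 20.7%). No draw was made without BRCA1-null B.

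**Figure D4:**
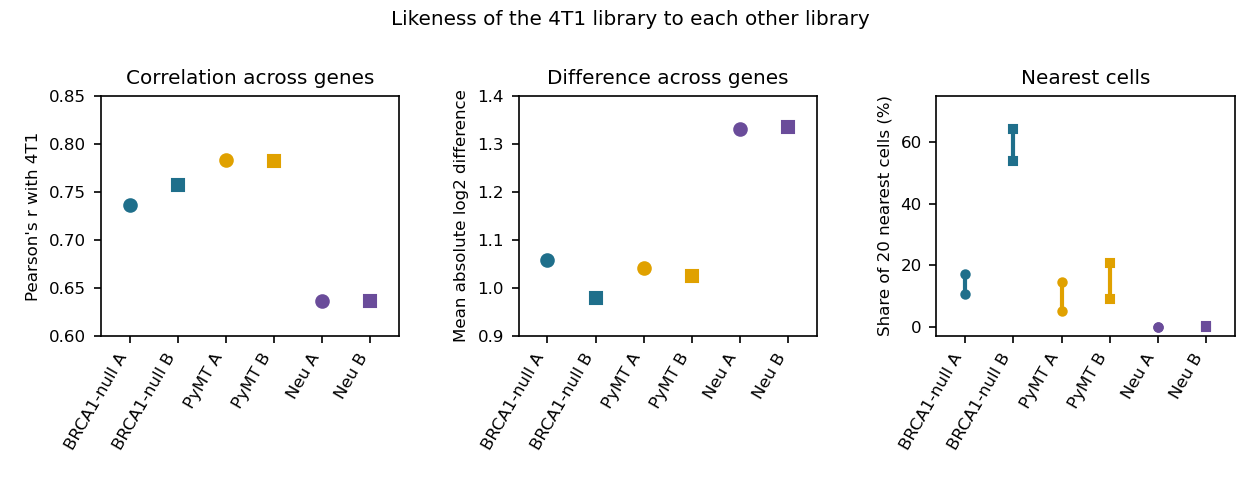
Likeness of 4T1 to each of the 6 other libraries, by Pearson's r across 9499 genes (left), the mean absolute log2 difference across genes (middle) and the share of the 20 nearest cells in percent, as lowest and highest of 5 draws (right). PyMT had the highest r (0.7832 and 0.7822), BRCA1-null B the smallest difference (0.979) and the most neighbors (54.0% to 64.4%), and Neu lay furthest in all panels. The vertical axes of the left and middle panels do not start at 0.

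Genes that set 1 model apart in both replicates were examined in 4T1. Of 455 genes at least 2-fold higher in both BRCA1-null libraries than in the other 4, 4T1 was also high for 205 (45.1%), and of 136 such low genes it was also low for 79 (58.1%). For PyMT the counts were 44 of 177 high genes (24.9%) and 54 of 121 low genes (44.6%), and for Neu 10 of 450 (2.22%) and 17 of 172 (9.88%). The share of all genes at which 4T1 lay 2-fold beyond the same 4 libraries was not computed, and it can differ by model. Over all genes, 4T1 was at least 2-fold over the mean of BRCA1-null for 13.8%, of PyMT for 25.7% and of Neu for 29.0%. The shares are therefore not a measure of likeness between models. Among the genes shared with BRCA1-null, those of largest fold were Hspb8, a small heat shock protein (181 CPM in 4T1, 76.9 and 70.8 in BRCA1-null and at most 0.768 elsewhere), the actin-bundling Fscn1 (118, with 116 and 106, and at most 1.21) and Id3 (352, with 247 and 300, and at most 4.19). The casein Csn3 was low in both, at 311 CPM in 4T1, 480 and 477 CPM in BRCA1-null and 17412 CPM or more elsewhere. With PyMT 4T1 shared the luminal keratin Krt7 (558 CPM, with 766 and 552 CPM in PyMT and at most 58.4 elsewhere), Csf3 and the class II genes Cd74 and H2-Ab1. The shared genes are given by size of fold, not tested, and the replicates of a model share its origin.

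The 4T1 library also differed by chromosome. Over 6460 genes, the median log2 level relative to the median of the 6 libraries, centred on the median of all these genes (0.18 before centring), was higher in 4T1 than in each other library on chromosomes 8, 9 and 19, lower on 6, 7, 14, 15, 18 and X and inside the range on the other 11. That reference was used for 4T1, while each other library was set against the median of the remaining ones without 4T1. Chromosome 8 had the highest value, 0.38 over 337 genes, against -0.265 to 0.077 in the other libraries. Chromosome 7 had the lowest, -0.35 over 487 genes, against -0.135 to 0.084, followed by X at -0.32 against -0.20 to 0.12. On chromosome 8, 10.3% of the genes counted were above all 6 libraries and 43.6% were higher by any amount, against 5.41% and 25.6% over all genes. On X, 2.62% were above and 4.87% below. On chromosome 9 the gap was small, with 0.134 in 4T1 and 0.130 in Neu A, and on chromosome 6 it was -0.185 against -0.162 in PyMT A. BRCA1-null A had wider swings than 4T1 on several chromosomes, such as -0.68 on chromosome 12. Copy number was not measured here.

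**Figure D5:**
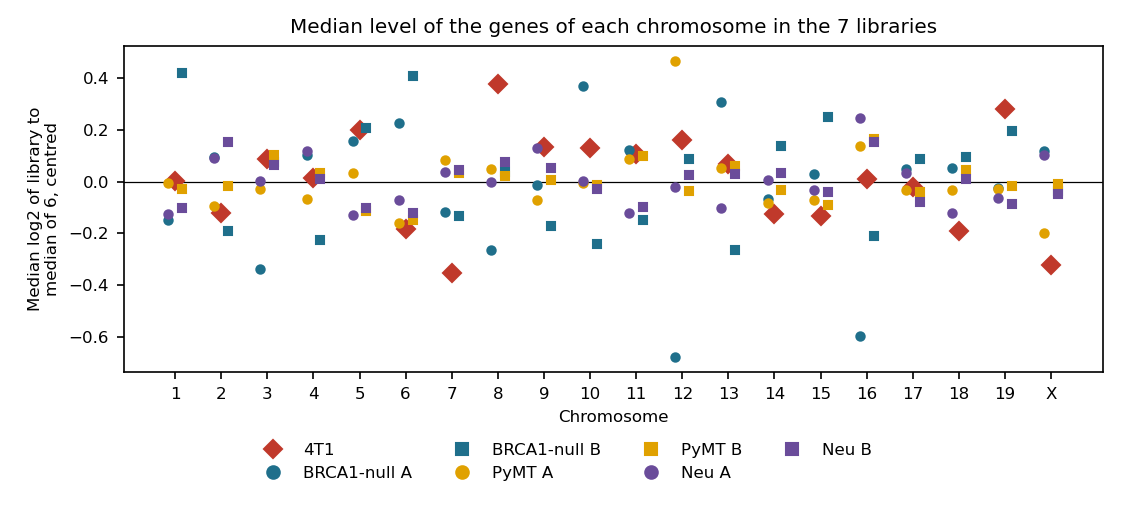
Median log2 level by chromosome, centred per library (vertical axis), for the 19 autosomes and X in the 7 libraries, with color for the tumor model and shape for the replicate. Levels of 4T1 are relative to the median of the 6 other libraries. Those of each other library are relative to the median of the remaining ones without 4T1. The 4T1 diamonds lay above all other points on chromosomes 8 (0.38), 9 and 19 and below them on 6, 7 (-0.35), 14, 15, 18 and X (-0.32).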

How the data were processed

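The deposited files held UMI counts per gene and cell barcode, which the authors made from 10x Genomics 3' v2 libraries with Cell Ranger on the mm10 mouse genome. The submitters' processing notes name version 2.2.0 for 4T1 and the replicate A libraries and 3.0.2 for replicate B, but every one of the 7 matrix headers gives 3.0.2. The sources used here do not name a sequencing batch for 4T1, while A and B mark the batches of the other libraries. A combined matrix equal to the sum of the 7 libraries was not used.

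Counts were summed per library over cells with at least 1000 UMIs, 500 genes and under 20% mitochondrial UMIs, and scaled to CPM. Doublets were kept in the main values, and an alternative left out cells at or over the Scrublet score that bounds the highest 2%. With ties this took 55 cells (3.14%) of 4T1 and 2.36% to 6.53% of the other libraries. The rules for calls are given with the first counts. Genes were named by a rule: the 12 largest folds in each direction at 50 CPM or more, up to 4 called members of each list, and genes that define the models or the sort. Genes named outside it are marked or are members of the lists and of the gene sets shared with 1 model. The members and lists were chosen with earlier results of these data known. The calling steps were tested on simulated data. Python 3.11.15, pandas 2.3.3, scanpy 1.11.5, edgeR 4.0.16 (TMM factors) and DESeq2 1.42.0 (median-of-ratios factors) were used, with no test. Gene positions were from GENCODE on GRCm38 and promoters from RefSeq.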

Additional observations from a re-analysis of the deposited data

How the results depend on the processing

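Of 23 alternatives, 18 gave counts within 1.5 times of the 514 genes above and the 167 below. The counts above and below were 850 and 312 against the replicate B libraries only, 2435 and 771 at a fold of 1, 171 and 71 at a fold of 4, 250 and 46 at a minimum of 50 CPM, and 791 and 777 with no minimum level. Leaving out 1 library at a time gave 520 to 698 above and 171 to 243 below. TMM scaling gave 414 and 193 and the median of ratios 405 and 198, so that 68.2% and 67.2% of calls were above, against 75.5% with CPM. The margin by which PyMT was closer than BRCA1-null, 0.0356 in r, was 0.0237 to 0.0453 with 1 library left out, 0.0105 as a difference in root mean square log2 difference, 0.0078 with a pseudocount of 10 and 0.0099 over all genes with a UMI. It was -0.0361 over genes at 50 CPM or more in every library and -0.0665 on the scale of the mean absolute log2 difference, chosen after seeing the data, so that BRCA1-null was then closest. The last value used averaged replicates of a model, and by library its order rested on BRCA1-null B. The cause was not tested. No paired analysis was possible because 4T1 is a single library and no test was run. A count of 3 is worth 0.148 CPM in 4T1 and limits lower levels.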
